A study of Mus musculus with 8 samples.

Results

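The comparison described here sets glomeruli of mice of the line Tln1 Pod-rtTA TetO-Cre, given vehicle, against glomeruli of control mice. Its arrays were chosen by their titles: 3 Tln1 vehicle arrays and 2 control arrays, which are 5 of the 8 arrays of the series. The other 3 arrays, from Tln1 mice given valproic acid, are not compared here. In the main fit they served only to estimate the spread. They also counted in the choice of probe sets, the cut-off for expressed genes, the grouping of arrays into sets and the fits with further terms. All mice were 13 weeks old and had received doxycycline for 3 weeks, starting at 8 weeks of age. The Tln1 vehicle mice then received vehicle for 2 weeks. The labels give the control mice doxycycline but name neither their alleles nor a vehicle, so the genotype and the vehicle may both differ between the groups. By its name the line makes Cre in podocytes only while doxycycline is given, so any loss of talin 1 would concern podocytes and no other cell of the glomerulus. The series' design text calls the mice other than controls proteinuric. Total RNA of isolated glomeruli was hybridised to Affymetrix arrays, 1 array per sample, and nothing in the labels says whether each array came from 1 animal. The p-values below therefore measure only the spread between these arrays, which may in part be technical.

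Talin 1, encoded by Tln1, binds the tails of integrin beta chains, switches integrins to their active state and ties them to actin through vinculin. Podocytes are the epithelial cells whose interlocking foot processes cover the glomerular capillaries, and they hold on to the basement membrane with the integrin of alpha 3 and beta 1 chains. Signals from adhesions and actin reach the nucleus through the transcription factor SRF, through YAP and through kinases that switch on immediate early genes.

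Expression is on the log2 scale of the authors' deposited table, computed by RMA, a method that summarises the probes of a probe set, so a difference of 1 means a doubling. Values per gene are given below in the order control 1 and 2, then Tln1 vehicle 1, 2 and 3. A change is the mean of the Tln1 vehicle arrays minus the mean of the control arrays. By overall correlation the arrays form 2 sets, 0.990 to 0.995 within a set and 0.966 to 0.979 across. Control 1 and Tln1 vehicle 1 and 2 lie in the first set, and control 2 and Tln1 vehicle 3 in the second. What made the sets is not in the labels. Each gene's change is therefore also given within each set, written as a pair with the first set first. No gene's set change is given a p-value, because each set holds 1 control array. The first set alone was fitted only as an alternative.

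Sex-linked RNA moved with the groups in the first set. The Y-linked genes Uty (3.67, 2.59, 6.01, 7.22, 2.69) and Eif2s3y (3.80, 2.83, 6.46, 7.71, 2.91) were far higher in Tln1 vehicle 1 and 2 than in the other arrays. Summed over the 3 measured Y-linked genes, control arrays had 10.7 and 8.11 and Tln1 vehicle arrays 17.3, 21.0 and 8.15. Xist, made from the inactive X chromosome, was at 9.71, 10.67, 9.66, 7.38 and 10.94 and was lowest in Tln1 vehicle 2. Proximal tubule RNA, which is not of glomerular origin, had 17 of 18 markers measured and summed to 194 and 186 in control arrays and to 199, 201 and 175 in Tln1 vehicle arrays. The sums do not stand for most markers: 12 of the 17 were lower in both sets and 0 higher in both. Their median change in the first set was -0.08, although the sums of Tln1 vehicle 1 and 2 exceeded that of control 1. On a log2 scale no marker was at 0. In whole glomeruli, fewer cells of a type and less RNA per cell cannot be told apart. The part that sex-linked RNA and other cell types have in the results below was not tested beyond the fits that include the array set or the Y-linked level.

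**Figure D1:**
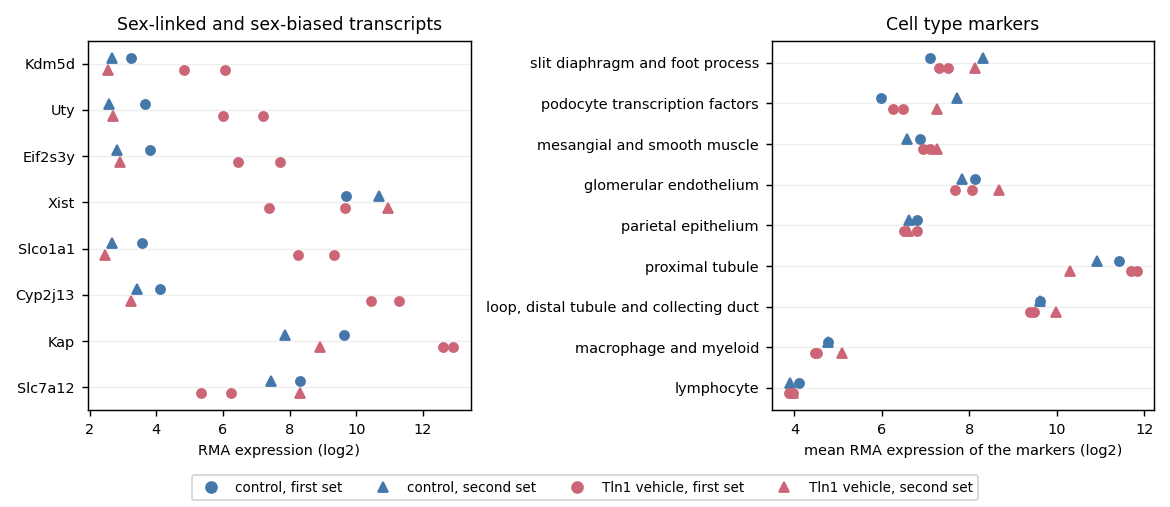
Left: log2 expression of 3 Y-linked genes, Xist and 4 sex-biased kidney transcripts, 1 point per array. Right: mean log2 level of the measured markers of each cell type, 1 point per array. Control arrays are blue, Tln1 vehicle arrays red; circles are the first set and triangles the second. Tln1 vehicle 1 and 2 stood apart for the Y-linked and male-biased transcripts, and proximal tubule markers were lowest in Tln1 vehicle 3, at 10.30.

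None of the 22180 genes passed the limma test at an adjusted p below 0.05 (0.0%), and the adjusted p of every gene was 1.00. At an unadjusted p below 0.05, 173 genes were higher (0.78%) and 149 lower (0.672%) in Tln1 vehicle arrays. All Tln1 vehicle arrays lay above both control arrays for 1060 genes (4.78%) and below both for 797 (3.59%), which is meant below by groups that do not overlap. Of all genes, 4606 were higher in both sets (20.8%) and 4995 lower in both (22.5%). A change of at least 0.5 in both sets was seen in 75 genes upward (0.338%) and 89 downward (0.401%). The median change of all genes was 0.02 (sets -0.01 and 0.00).

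The genes named first are the 12 per direction whose smaller set change was largest among expressed genes with groups that did not overlap. They were chosen by these values, so their changes are a description. The 12 higher genes were Npy6r, Lcn2, Stc1, Cyp4a12b, Itga8, Cyp2a4, Cyp4a12a, Hspa1b, Mest, Olfr1396, Des and Gata5. The 12 lower genes were Zbtb16, Slc38a3, Plekhb1, Cyp4a14, Plk3, Scd1, Hpd, Kynu, Hacl1, Angptl4, Rdh16f2 and Bhmt. Unadjusted p by limma was below 0.05 for 10 of the higher and 11 of the lower genes, against 0.78% and 0.672% of all genes. The choice by size favours such values, so neither this count nor the unadjusted p of a named gene below is further support. Once the array set was a term of the limma fit, their adjusted p lay between 0.318 and 0.721. With both the array set and the Y-linked level in the fit, all 24 kept their direction, and Rdh16f2 alone was smaller than 0.5 in size (-0.49). The point of reference, the immediate early transcription factor Egr1, was at 5.96, 6.44, 7.91, 7.92 and 8.21 (change 1.81, SE 0.23).

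**Figure D2:**
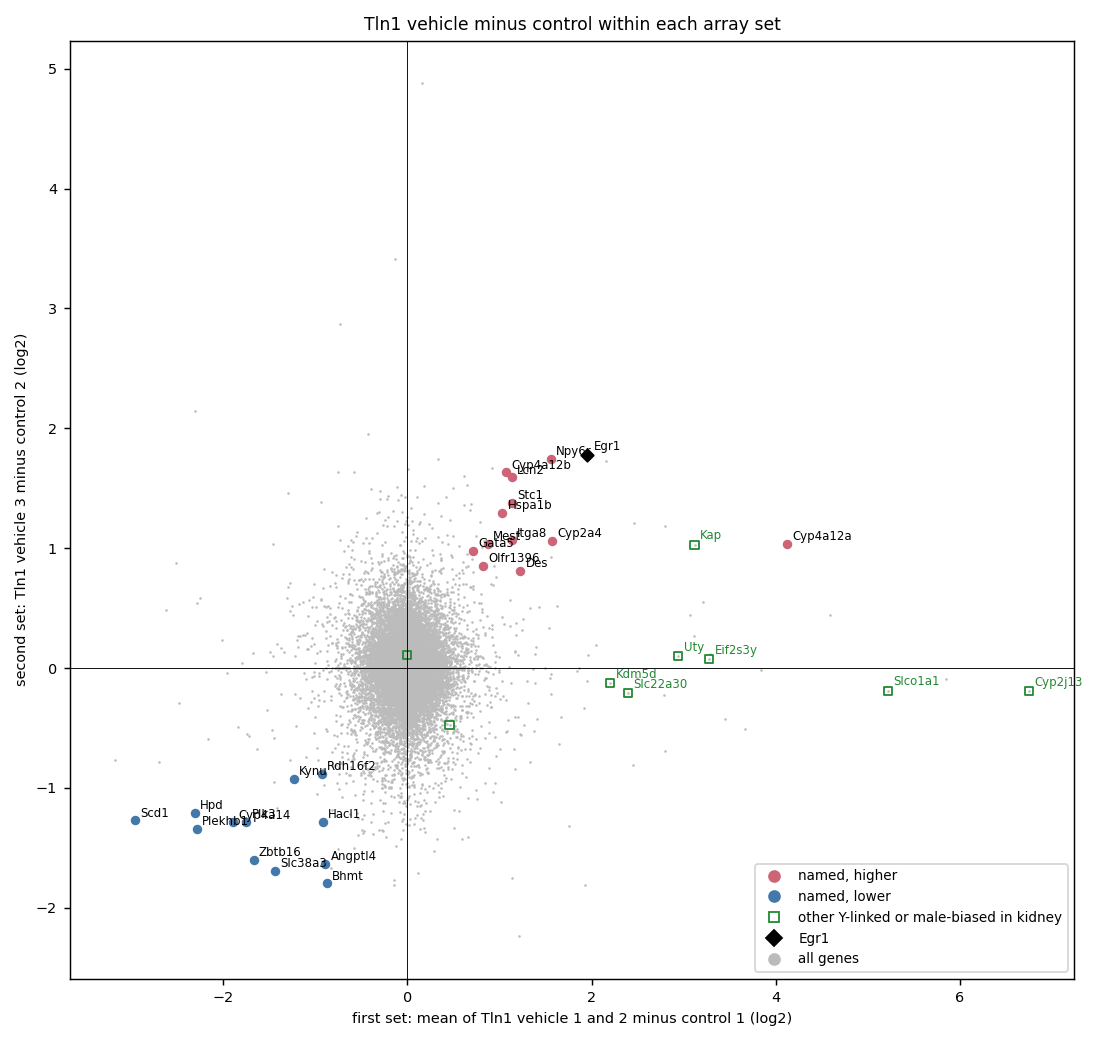
Change within the first set (horizontal) against change within the second set (vertical), both in log2 units, 1 point per gene for all 22180 genes. The 12 named higher genes (red) lie to the upper right and the 12 named lower genes (blue) to the lower left, while among the green squares the 3 Y-linked genes and the male-biased Slco1a1, Slc22a30 and Cyp2j13 are displaced in the first set alone, Cyp2j13 with 6.75 and -0.19.

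Tln1 itself was at 8.97, 8.64, 8.95, 8.95 and 8.60. It changed by 0.03 (SE 0.17) over all arrays and by -0.02 and -0.04 in the sets, a sign that turned under 8 of 17 alternatives, centring the arrays among them. The groups overlapped fully. Whether its probe set covers the deleted exons is unknown, and other cells of the glomerulus also make talin 1, so this value checks no label. Its paralog Tln2, talin 2, was at 7.98, 8.15, 7.47, 7.51 and 7.82 (change -0.46, SE 0.21, sets -0.49 and -0.33). All Tln1 vehicle arrays lay below both controls for Tln2.

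Among 24 measured focal adhesion genes, 9 were higher and 15 lower, and their median change of -0.02 was close to that of all genes. Vinculin, Vcl, which talin recruits under tension, was at 8.75, 8.73, 9.13, 8.91 and 8.85 (change 0.22, SE 0.14). It was the only member with all Tln1 vehicle arrays above the controls, as Tln2 was the only one with all of them below. The kindlin Fermt2, the other activator of integrins, changed by 0.20 (SE 0.14), parvin alpha, Parva, by -0.27 (SE 0.21) and the actin crosslinker Actn1 by 0.12 (SE 0.34). In these 3 genes the groups overlapped, the sign of Parva turned without control 2, and that of Actn1 turned without control 1 or without Tln1 vehicle 3.

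Of the 16 integrin chains, 7 were higher in both sets and 3 lower in both, against 20.8% and 22.5% of all genes. Their median change was 0.04. Itga8, the alpha 8 chain of mesangial and smooth muscle cells, was at 6.55, 6.22, 7.96, 7.41 and 7.29. Every Tln1 vehicle array exceeded both controls by more than the controls differed from each other. Its change was 1.17 (SE 0.26, unadjusted p = 0.00243 by limma), with 1.13 and 1.07 in the sets. Itga4, the alpha 4 chain found on leukocytes and mesenchymal cells, was at 5.35, 5.57, 5.97, 5.75 and 5.90 (change 0.41, SE 0.13). Itgb1, the beta 1 chain that talin binds, was at 9.41, 9.62, 9.81, 9.62 and 9.81 (change 0.23, SE 0.14), and its groups were parted by less than the difference between the controls. Itga2, a collagen receptor chain, was 0.95 and 0.85 higher in the sets but overlapped between the groups (4.27, 5.45, 5.25, 5.19, 6.30). The control array of the second set lay above both Tln1 vehicle arrays of the first set. Itgb8 changed by -0.39 (SE 0.35, sets -0.21 and -0.95), a sign that turned with array weights.

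Genes of the actin cytoskeleton that SRF controls had medians of opposite sign in the sets. Of 18 measured, 14 were higher over all arrays but 6 in both sets, against 20.8% of all genes in both. Their median change was 0.16 (sets -0.14 and 0.48), with 0.04 to 0.24 when each array was left out. Srf itself was at 7.23, 7.28, 6.93, 6.98 and 7.15 (change -0.24, SE 0.15) and lay below both controls in every Tln1 vehicle array. The nonmuscle myosin heavy chain Myh9 (9.67, 9.73, 9.93, 9.75, 9.88) and the LIM protein Fhl2 (6.66, 6.11, 6.82, 6.71, 6.80) lay above both controls in all 3, as did Vcl. Members named in this text only because their groups did not overlap were chosen after their values were seen. The groups of tropomyosin Tpm1 and calponin Cnn2 overlapped, with changes of 0.22 (SE 0.33, a sign that turned without control 1 or without Tln1 vehicle 3) and 0.24 (SE 0.24).

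SRF binds the CArG box, and the promoters of 3 genes of this list and of the immediate early gene Zfp36 are printed because they hold one and their groups did not overlap. The sequences are the 250 bases before the gene's start in RefSeq (GRCm38.p6), 5′ to 3′ along the gene, with the box in capitals.
Vcl (chr14:20929148-20929397, plus strand): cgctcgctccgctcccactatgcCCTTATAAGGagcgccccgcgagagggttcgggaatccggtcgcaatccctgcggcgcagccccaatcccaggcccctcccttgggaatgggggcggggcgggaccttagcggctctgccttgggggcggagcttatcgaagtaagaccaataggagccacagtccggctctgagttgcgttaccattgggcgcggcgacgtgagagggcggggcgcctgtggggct
Fhl2, upstream start (chr1:43196762-43197011, minus strand): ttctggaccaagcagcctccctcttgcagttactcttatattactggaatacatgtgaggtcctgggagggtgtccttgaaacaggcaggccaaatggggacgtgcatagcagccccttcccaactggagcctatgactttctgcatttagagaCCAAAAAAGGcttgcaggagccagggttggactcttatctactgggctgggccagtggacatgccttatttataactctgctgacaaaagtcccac
Fhl2, downstream start (chr1:43163962-43164211, minus strand): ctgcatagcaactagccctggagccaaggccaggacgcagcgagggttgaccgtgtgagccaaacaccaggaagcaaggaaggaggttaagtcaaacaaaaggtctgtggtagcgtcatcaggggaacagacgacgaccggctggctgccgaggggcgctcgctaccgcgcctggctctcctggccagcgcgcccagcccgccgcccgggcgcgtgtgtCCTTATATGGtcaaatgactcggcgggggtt
Zfp36 (chr7:28379229-28379478, minus strand): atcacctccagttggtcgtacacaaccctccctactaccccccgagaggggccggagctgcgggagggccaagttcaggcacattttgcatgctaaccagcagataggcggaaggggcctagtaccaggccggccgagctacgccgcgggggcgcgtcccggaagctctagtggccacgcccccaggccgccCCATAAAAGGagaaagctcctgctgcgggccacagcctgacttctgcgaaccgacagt
Srf (chr17:46556163-46556412, minus strand): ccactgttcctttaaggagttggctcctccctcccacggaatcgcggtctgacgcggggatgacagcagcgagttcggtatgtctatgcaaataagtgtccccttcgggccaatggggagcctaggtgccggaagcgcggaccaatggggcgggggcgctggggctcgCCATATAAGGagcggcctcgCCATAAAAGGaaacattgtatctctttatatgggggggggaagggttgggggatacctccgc
The box begins 227 bases before the start of Vcl, 96 and 31 before those of Fhl2, 58 before that of Zfp36 and 82 before that of Srf, which has 2. Of all 32851 promoters in the table, 535 (1.63%) hold a CArG box on either strand in the window of 300 bases, which runs to 50 bases after the start. Of the SRF-dependent cytoskeleton genes with a promoter there, 6 of 15 (40%) held one, against 2 of 22 immediate early genes (9.09%), 3 of 19 focal adhesion genes (15.8%), 1 of 12 mesangial markers (8.33%) and 0 of 12 YAP targets. The lists count genes with a box in any of their promoters, while the share of all promoters counts each promoter, so the measures differ. The first list was drawn up as genes that SRF controls, so its share is no result of these arrays. Of the 4 genes with a printed promoter, Vcl, Zfp36 and Fhl2 were higher and Srf was lower. Genes on the chromosome that carries Egr1 were left out of the printing, so these 4 are not a full tally.

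Targets of YAP, the coactivator that responds to matrix stiffness and cell tension, were higher in both sets for 12 of 17 genes, against 20.8% of all genes. Their median change was 0.29, with 0.14 and 0.40 in the sets, and it was 0.07 without control 1 or without Tln1 vehicle 3. Ccn2, connective tissue growth factor, was at 7.37, 7.56, 8.19, 7.67 and 8.58 (change 0.68, SE 0.37, sets 0.56 and 1.02). Tissue factor, F3, was at 6.41, 6.60, 6.89, 6.86 and 7.18 (change 0.47, SE 0.16). For both genes, and for the angiomotin-like Amotl1 and the exchange factor Arhgef17, all Tln1 vehicle arrays lay above both controls. These were 4 of 17 genes, against 4.78% of all genes. The receptor kinase Axl changed by 0.51 (SE 0.43, sets 0.81 and 0.50), a sign that turned without control 1, and Fjx1, a kinase of the cadherin Fat pathway, by 0.66 (SE 0.39, sets 0.56 and 0.45). Groups overlapped for Axl and Fjx1, which differed more between the array sets than between the groups.

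Immediate early genes, which cells transcribe within minutes of a stimulus, were higher in both sets for 17 of 27 genes, against 20.8% of all genes. Of the 27, 11 were higher by at least 0.5 in both, against 0.338% of all genes. The median of the list was 0.23 (sets 0.14 and 0.52). When single arrays were left out it moved between 0.02 (Tln1 vehicle 3) and 0.52 (control 2). Without control 1 it was 0.11, and without Tln1 vehicle 2 it was 0.45. Egr1 was known to be high when this list was drawn up. Fos was at 4.94, 7.21, 7.22, 6.97 and 8.94 (change 1.64, SE 0.78, sets 2.16 and 1.73). Its control arrays differed from each other by more than the group means did, and the groups overlapped. Jun changed by 0.61 (SE 0.49, sets 0.91 and 0.70), a sign that turned without control 1. Junb was at 6.52, 6.47, 6.97, 7.08 and 7.97 and Zfp36, which speeds the decay of cytokine mRNAs, at 8.15, 8.60, 8.79, 8.62 and 9.12. Plk2, a polo-like kinase, was at 5.81, 5.86, 6.56, 6.25 and 6.68 (change 0.66, SE 0.16). In Junb, Zfp36, Plk2 and the stress gene Gadd45b the groups did not overlap. With Egr1, 5 of 27 genes had all Tln1 vehicle arrays above both controls, against 4.78% of all genes.

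Plk3, the other polo-like kinase of the list, went the opposite way to Plk2. Its 5 values were 8.06, 7.83, 6.70, 5.92 and 6.54. The nearest arrays of the groups were thus more than 1 log2 unit apart. Its change was -1.55 (SE 0.25, unadjusted p = 2.80e-04 by limma), with -1.75 and -1.28 in the sets. It ranged from -1.71 to -1.32 when each array was left out in turn. Plk3 was chosen by the size of its set changes, so neither the p-value nor this range is further support.

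**Figure D3:**
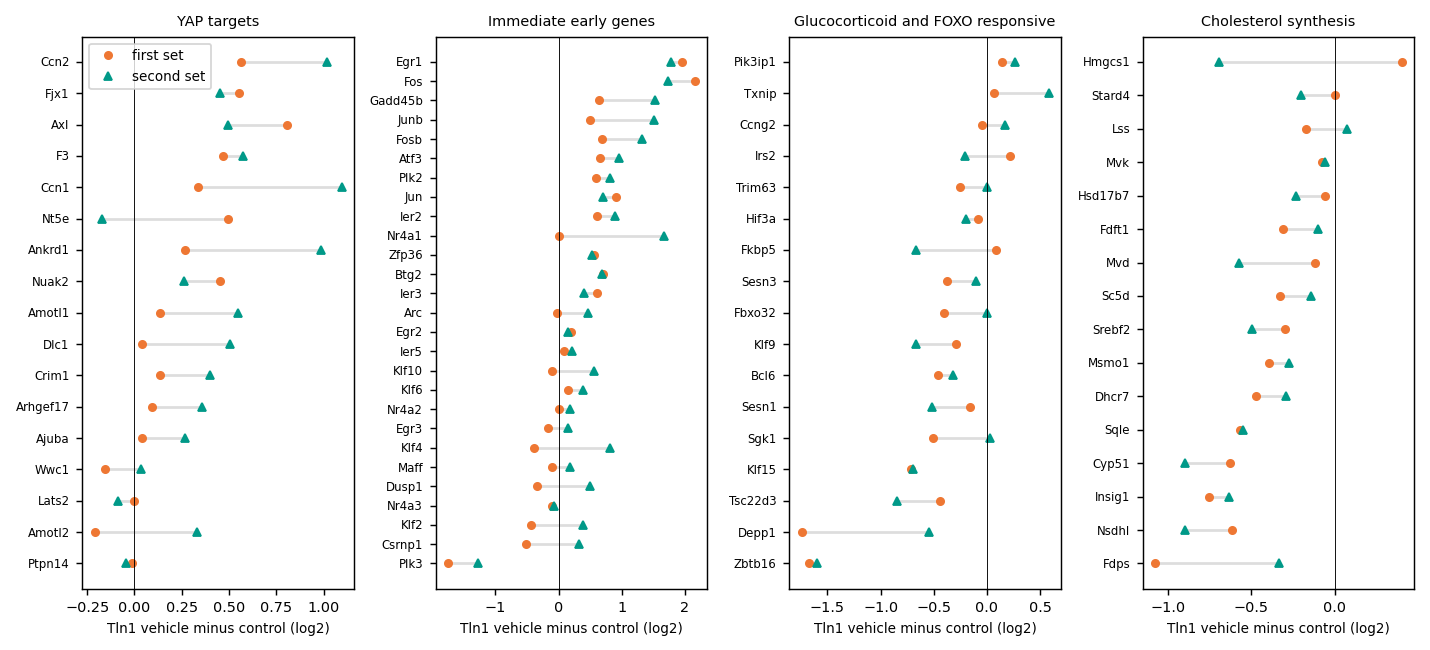
Set changes of the measured members of 4 gene lists, in log2 units: circles are the first set, triangles the second, and a grey line joins the pair of each gene. In the YAP panel 12 of 17 genes lie to the right of 0 in both sets, and in the cholesterol panel 13 of 16 lie to the left in both.

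Podocyte markers showed no common direction. Slit diaphragm and foot process markers had a median change of -0.02 (sets 0.28 and -0.10), and the sign turned under 7 of 17 alternatives. Of 22 measured, 7 were higher in both sets and 3 lower in both, against 20.8% and 22.5% of all genes. The dystroglycan gene Dag1, the formin Inf2 and the myosin Myo1e changed by 0.09 (SE 0.39), 0.09 (SE 0.39) and 0.19 (SE 0.34), signs that all turned without control 1. Ezrin, Ezr, which links podocalyxin to actin, was the only member whose groups did not overlap, at 11.01, 10.96, 10.92, 10.74 and 10.85. The 6 podocyte transcription factors had medians of 0.25 and -0.42 in the sets, and Lmx1b, which maintains the mature podocyte, changed by -0.28 (SE 0.33), a sign that turned without control 2. The podocyte markers were all detected well within the range of the array: the slit diaphragm list averaged 7.10, 8.30, 7.52, 7.31 and 8.14 over the 5 arrays in that order. Basement membrane genes had a median of 0.03 (0.04 and 0.05 in the sets), a sign that turned when arrays were centred, and Lama5, the laminin alpha chain of the mature membrane, changed by 0.31 (SE 0.22).

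Mesangial and smooth muscle markers include Itga8 and Des of the named higher genes. The intermediate filament desmin, Des, which mesangial cells make and which injured podocytes also express, was at 5.13, 5.26, 6.70, 6.003 and 6.07. The controls lay within 0.2 of each other and every Tln1 vehicle array was at least 0.7 above them. Its change was 1.06 (SE 0.26), with 1.22 and 0.81 in the sets. Pdgfrb, a receptor of PDGF ligands on mesangial cells and pericytes, was at 6.81, 6.66, 7.82, 7.41 and 7.20 (change 0.74, SE 0.19), again without overlap. Sfrp2, a secreted Wnt antagonist, was at 7.34, 6.97, 8.55, 8.37 and 7.32 and overlapped through Tln1 vehicle 3. The list as a whole did not follow them. Of 15 measured markers 5 were higher in both sets, against 20.8% of all genes. The median of 0.28 stood beside set medians of -0.19 and 0.74. The 15 markers summed to 103 and 98.6 in the controls, against 106, 104 and 109 with Tln1 vehicle.

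Endothelial markers were higher in the second set and not in the first. Their median was 0.19, with -0.12 and 0.85 in the sets, and 4 of 21 were higher in both, against 20.8% of all genes. Ehd3, a membrane trafficking protein enriched in glomerular endothelium, was the one member without overlap, at 10.50, 9.81, 10.78, 10.58 and 11.33. Nostrin and Cyyr1 changed by 0.44 (SE 0.32) and 0.47 (SE 0.29). Of 8 parietal epithelial markers 5 were higher and 3 lower over all arrays, with a median of 0.09 (sets -0.08 and 0.03, and negative too without control 2 or with the Y-linked covariate). Among them, the adhesion molecules Ncam1 (5.79, 6.19, 5.76, 5.17, 5.24) and Cdh6 (7.24, 7.04, 6.74, 5.80, 6.82) lay below both controls in all Tln1 vehicle arrays. For Ncam1 the gap between the groups was 0.03 at its narrowest.

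Several secreted proteins and proteases were among the higher genes. Lcn2, the lipocalin that injured kidney epithelium releases, was at 6.42, 6.90, 8.19, 6.92 and 8.49 (change 1.21, SE 0.44, sets 1.13 and 1.59). Tln1 vehicle 2 lay next to control 2, and the other Tln1 vehicle arrays were well above. Of the other 13 measured tubular injury genes none parted the groups, the median of the list was 0.07 (0.04 and 0.36 in the sets, a sign that turned without Tln1 vehicle 3), and the keratin Krt8 and the calcium-binding S100a6 changed by 0.43 (SE 0.26) and 0.39 (SE 0.32). Stc1, the secreted glycoprotein stanniocalcin 1, was at 6.89, 7.06, 8.42, 7.62 and 8.44 (change 1.19, SE 0.33, unadjusted p = 0.00747 by limma). It had no overlap, and with the array set and the Y-linked level in the fit its change was 1.66.

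ADAMTS genes encode secreted metalloproteases that cut proteoglycans of the matrix. Of 14 measured, 8 were higher in both sets, against 20.8% of all genes. All Tln1 vehicle arrays lay above the controls for 4 of them, against 4.78% of all genes. Adamts5 was at 6.09, 6.21, 7.07, 6.54 and 6.89 (change 0.69, SE 0.19) and Adamts1 at 6.45, 6.57, 7.16, 6.997 and 7.27 (change 0.64, SE 0.13). Adamts16 was at 5.92, 5.89, 6.27, 6.29 and 6.79 (change 0.55, SE 0.18) and Adamts9 at 6.86, 6.74, 7.17, 6.998 and 6.90 (change 0.22, SE 0.19). The controls were within 0.2 of each other in all 4 genes. The median of the list was 0.13, with 0.08 and 0.17 in the sets, and it kept its sign under all 17 alternatives. S1pr3, a receptor for sphingosine 1-phosphate, was at 6.05, 5.91, 6.73, 6.65 and 6.76 (change 0.73, SE 0.15), the only one of 11 genes of that pathway whose groups did not overlap.

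Among other higher genes, Npy6r, a receptor of the neuropeptide Y family, was at 4.30, 5.40, 5.52, 6.19 and 7.14. In each set its Tln1 vehicle arrays were above the control by more than 1, while across the sets Tln1 vehicle 1 and control 2 lay close. Its change was 1.44 (SE 0.51, sets 1.56 and 1.75). Gata5, a zinc finger transcription factor, was at 6.18, 6.21, 6.98, 6.83 and 7.19 (change 0.80, SE 0.17), with nearly equal controls. Mest, a paternally expressed imprinted gene, was at 5.72, 6.01, 6.93, 6.27 and 7.04 (change 0.88, SE 0.26). Olfr1396, an olfactory receptor by its symbol, was at 4.41, 5.20, 5.22, 5.25 and 6.06 (change 0.70, SE 0.31), and only 0.01 parted its groups. Hspa1b, a stress-induced heat shock protein, was at 6.60, 7.44, 7.64, 7.63 and 8.73 (change 0.98, SE 0.54, sets 1.03 and 1.29). Its near-identical copy Hspa1a was at 6.88, 8.69, 7.76, 8.08 and 9.97, and probes may not tell the copies apart, so their values are not independent.

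**Figure D4:**
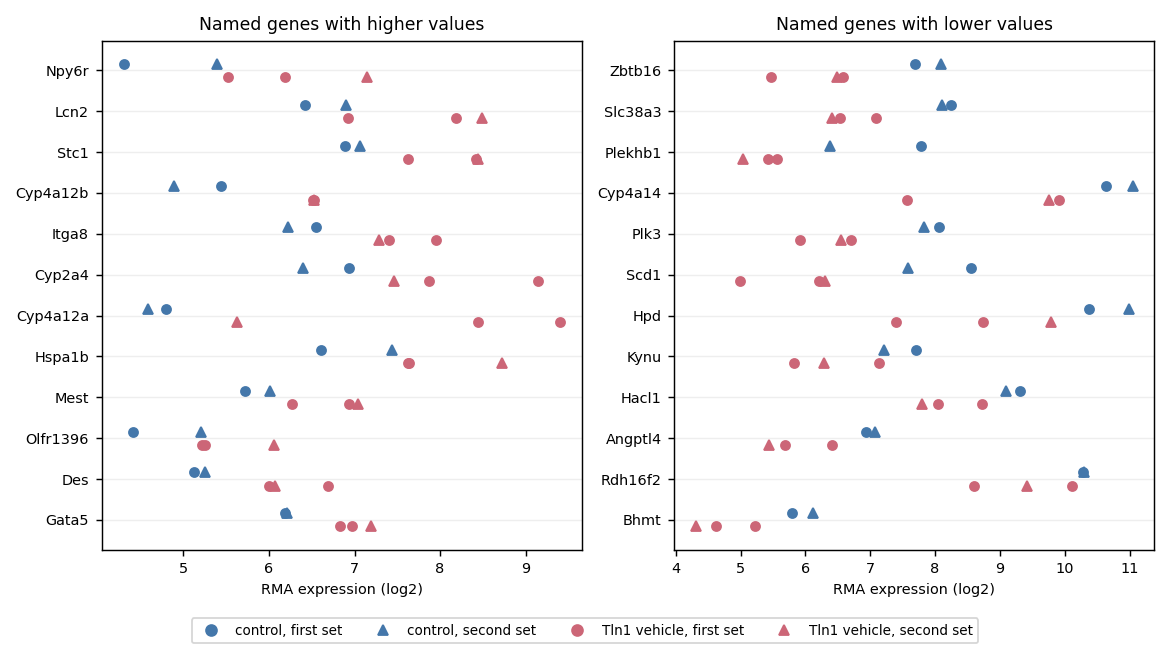
Log2 expression of the 12 named higher genes (left) and the 12 named lower genes (right), 1 point per array. Blue points are control arrays and red points Tln1 vehicle arrays; circles are the first set and triangles the second. By the rule that chose the genes the red points of a gene all lie on one side of its blue points, and the spread of the red points was widest for Cyp4a12a, with 8.44, 9.40 and 5.63.

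Most of the 12 lower genes encode proteins of metabolism and transport. Scd1, stearoyl-CoA desaturase, which makes monounsaturated fatty acids, was at 8.55, 7.58, 6.21, 4.99 and 6.31. All Tln1 vehicle arrays were at least 1 below both controls. Its change was -2.23 (SE 0.55, unadjusted p = 0.00399 by limma), with -2.96 and -1.27 in the sets and -1.43 with the array set and the Y-linked level in the fit. Of 11 genes of fatty acid synthesis, 5 were lower in both sets and none higher in both, against 22.5% and 20.8% of all genes. No member other than Scd1 parted the groups. The desaturases Fads1 and Fads2 changed by -0.71 (SE 0.32) and -0.49 (SE 0.64) and the regulator Srebf1 by -0.33 (SE 0.26), and the sign of Fads2 turned without Tln1 vehicle 3. The list's median was -0.25, with -0.26 and -0.35 in the sets, and turned to 0.02 without Tln1 vehicle 3.

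Cholesterol synthesis genes, which SREBP2 drives, were lower in both sets for 13 of 16 genes, against 22.5% of all genes. Their median change was -0.24, with -0.32 and -0.31 in the sets, and turned to 0.02 without control 1, in which these genes were highest. Fdps, farnesyl diphosphate synthase, was at 7.26, 6.49, 6.28, 6.10 and 6.15 (change -0.70, SE 0.21). It lay below both controls in every Tln1 vehicle array, as did the later enzymes Sc5d and Hsd17b7. Insig1, which holds SREBP in the endoplasmic reticulum, was at 9.43, 8.23, 8.58, 8.77 and 7.59, with -0.75 and -0.63 in the sets. Nsdhl was 0.62 and 0.90 lower, Cyp51 0.63 and 0.90 lower and Sqle 0.57 and 0.55 lower in the sets. For these 4 genes the groups overlapped, since control 2 lay below Tln1 vehicle 1 and 2, and the signs of Insig1, Cyp51 and Sqle turned without control 1.

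Slc38a3, a glutamine transporter that proximal tubules use in ammonia production, was at 8.25, 8.11, 6.53, 7.08 and 6.42. Every Tln1 vehicle array was at least 1 below both controls. Its change was -1.50 (SE 0.28, unadjusted p = 7.32e-04 by limma), with -1.44 and -1.69 in the sets and -1.79 with the array set and the Y-linked level in the fit. The other members of gluconeogenesis and ammonia production did not part the groups. Pck1, Glud1 and Fbp1 changed by -0.39 (SE 0.58), -0.29 (SE 0.39) and -0.35 (SE 0.50), with signs that turned with the replicate block. In all, 7 of 11 were lower in both sets, against 22.5% of all genes. The list's median of -0.21 (sets -0.18 and -0.79) turned to 0.03 without control 1 and 0.04 without Tln1 vehicle 3. Of 17 proximal tubule markers, 12 were lower in both sets, against 22.5% of all genes, with medians of -0.08 and -0.59. The sign of their median over all arrays turned under 4 of 17 alternatives. Their mean level was 11.42 in control 1 but 11.68 and 11.83 in Tln1 vehicle 1 and 2, so mean and median differed in direction in the first set. The water channel Aqp1 alone parted the groups (10.39, 10.34, 10.07, 10.20, 9.89).

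Hpd, Kynu and Bhmt, of amino acid breakdown and methyl transfer, were among the 12 lower genes by the rule that chose them. Hpd, the hydroxyphenylpyruvate dioxygenase of tyrosine breakdown, was at 10.37, 10.99, 8.74, 7.39 and 9.78 (change -2.04, SE 0.65, sets -2.31 and -1.21). Kynu, kynureninase of tryptophan breakdown, was at 7.71, 7.21, 7.14, 5.82 and 6.29 (change -1.05, SE 0.37). Bhmt, which remethylates homocysteine with betaine, was at 5.80, 6.11, 5.22, 4.62 and 4.32 (change -1.23, SE 0.28, sets -0.87 and -1.80). Hpd and Kynu were lowest in Tln1 vehicle 2 and Bhmt in Tln1 vehicle 3. Of 17 genes of one-carbon and serine metabolism, 10 were lower in both sets, against 22.5% of all genes. Their median change was -0.25 (-0.08 and -0.23 in the sets), a sign that turned without control 1 and without Tln1 vehicle 3. Phgdh, the first enzyme of serine synthesis, was below both controls in every Tln1 vehicle array (4.93, 4.79, 4.51, 3.92, 4.75), and the mitochondrial folate enzyme Mthfd2 was above them (4.40, 4.56, 4.83, 4.79, 4.75). The change of Phgdh turned to 0.005 with the array set and the Y-linked level in the fit. Dmgdh, the next enzyme after Bhmt, changed by -0.50 (SE 0.56).

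In lipid use, Angptl4, the secreted inhibitor of lipoprotein lipase, was at 6.94, 7.07, 6.42, 5.68 and 5.44 (change -1.16, SE 0.28, sets -0.89 and -1.64). Hacl1, a peroxisomal lyase of fatty acid alpha-oxidation, was at 9.30, 9.09, 8.73, 8.04 and 7.80 (change -1.004, SE 0.26). In both, the controls were close and all Tln1 vehicle arrays lower. Angptl4 was the only one of 15 genes of fatty acid oxidation and PPARA targets to part the groups, and the median of that list was 0.06, with 0.06 and -0.30 in the sets. Respiratory chain subunits were lower in both sets for 13 of 22 genes, against 22.5% of all genes, and none parted the groups. Their median was -0.06 (sets -0.11 and -0.19), and its sign turned under 4 of 17 alternatives, to 0.22 without control 1 and 0.14 without Tln1 vehicle 3. Atp5o and Cox4i1, subunits of ATP synthase and cytochrome c oxidase, changed by -0.46 (SE 0.22) and -0.28 (SE 0.20). Plekhb1, a protein with a pleckstrin homology domain, was at 7.78, 6.38, 5.57, 5.43 and 5.03 (change -1.74, SE 0.59), and its controls differed from each other by more than control 2 did from the Tln1 vehicle arrays.

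Genes that glucocorticoids and FOXO factors switch on were lower in both sets for 9 of 17 genes, against 22.5% of all genes, and 4 parted the groups downward, against 3.59%. Zbtb16, a transcription factor that glucocorticoids induce in many cells, was at 7.69, 8.10, 6.57, 5.47 and 6.49. It was lower in every Tln1 vehicle array by more than 1. Its change was -1.71 (SE 0.44, unadjusted p = 0.00492 by limma), with -1.67 and -1.60 in the sets. Klf15, a regulator of amino acid metabolism and of podocyte differentiation, was at 8.00, 7.72, 7.16, 7.42 and 7.03 (change -0.66, SE 0.23). Tsc22d3, the glucocorticoid-induced leucine zipper, was at 6.28, 6.96, 5.87, 5.81 and 6.12 (change -0.69, SE 0.25). Depp1, a FOXO target, was at 8.08, 6.94, 6.67, 5.996 and 6.40 (change -1.16, SE 0.37, sets -1.74 and -0.55). The first-set control stood out for Depp1, and in Klf15 and Tsc22d3 the spread between the controls was smaller than the change, or about equal to it. The median of the list was -0.26, with -0.29 and -0.20 in the sets and -0.29 to -0.14 when each array was left out in turn, and it kept its sign under all 17 alternatives.

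Genes of the circadian clock, whose mRNA levels cycle over the day, differed in both directions. Dbp, an output factor of the clock, was at 7.57, 7.49, 8.19, 8.34 and 8.86 (change 0.93, SE 0.31, sets 0.69 and 1.37). Nr1d2, a repressor of the clock, was at 7.53, 7.54, 7.82, 7.81 and 8.01 (change 0.34, SE 0.14). Bhlhe40, also a repressor, was at 8.66, 8.86, 9.05, 8.94 and 9.46 (change 0.39, SE 0.18). In these 3 genes, and in Bhlhe41 and Cry2, all Tln1 vehicle arrays lay above both controls. Usp2, a deubiquitinase with a daily rhythm, lay below them (9.02, 9.47, 8.43, 8.70, 8.85, change -0.58, SE 0.20). Per3 changed by 0.54 (SE 0.37) with overlap. Of 17 measured clock genes, 8 were higher and 6 lower in both sets, against 20.8% and 22.5% of all genes. Upward, 5 of the 17 parted the groups, against 4.78% of all genes.

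The cytochrome P450 genes among the named genes are sex-biased or close relatives of each other. Cyp4a12a, a male-biased fatty acid hydroxylase of the kidney, was at 4.79, 4.59, 8.44, 9.40 and 5.63 (change 3.13, SE 0.99, sets 4.13 and 1.04). It was highest in the arrays with the highest Y-linked levels and still about 1 above control in the second set, where Y-linked levels were low. Cyp4a12b, its near-identical neighbour, was at 5.44, 4.89, 6.51, 6.53 and 6.53 (change 1.35, SE 0.23). Probes may not part this pair. The female-biased Cyp4a14 was at 10.63, 11.04, 9.91, 7.57 and 9.76 (change -1.76, SE 0.64), and Cyp2a4, which also has close copies, at 6.94, 6.40, 7.87, 9.15 and 7.46 (change 1.49, SE 0.62). With the array set and the Y-linked level in the fit, the changes were 1.32 for Cyp4a12a, 1.38 for Cyp4a12b, -0.75 for Cyp4a14 and 0.56 for Cyp2a4. Rdh16f2, of the retinol dehydrogenase family, was at 10.29, 10.30, 10.11, 8.60 and 9.41 (change -0.92, SE 0.47), with nearly equal controls and a wide spread in Tln1 vehicle arrays.

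Some other male-biased transcripts differed mainly in the first set. Cyp2j13 was at 4.11, 3.43, 10.44, 11.27 and 3.24, and Slco1a1, an organic anion transporter, at 3.56, 2.66, 8.25, 9.32 and 2.47. Kap, the androgen-regulated protein of proximal tubules, was at 9.63, 7.87, 12.59, 12.91 and 8.90. The 8 measured male-biased genes summed to 46.4 and 41.9 in control and to 66.8, 72.2 and 44.6 in Tln1 vehicle arrays, with medians of 2.76 and -0.04 in the sets. Female-biased genes had medians of -1.89 and -0.04. In the second set Cyp2j13 and Slco1a1 were as low in Tln1 vehicle 3 as in control 2, and Kap was higher by 1.03.

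**Figure D5:**
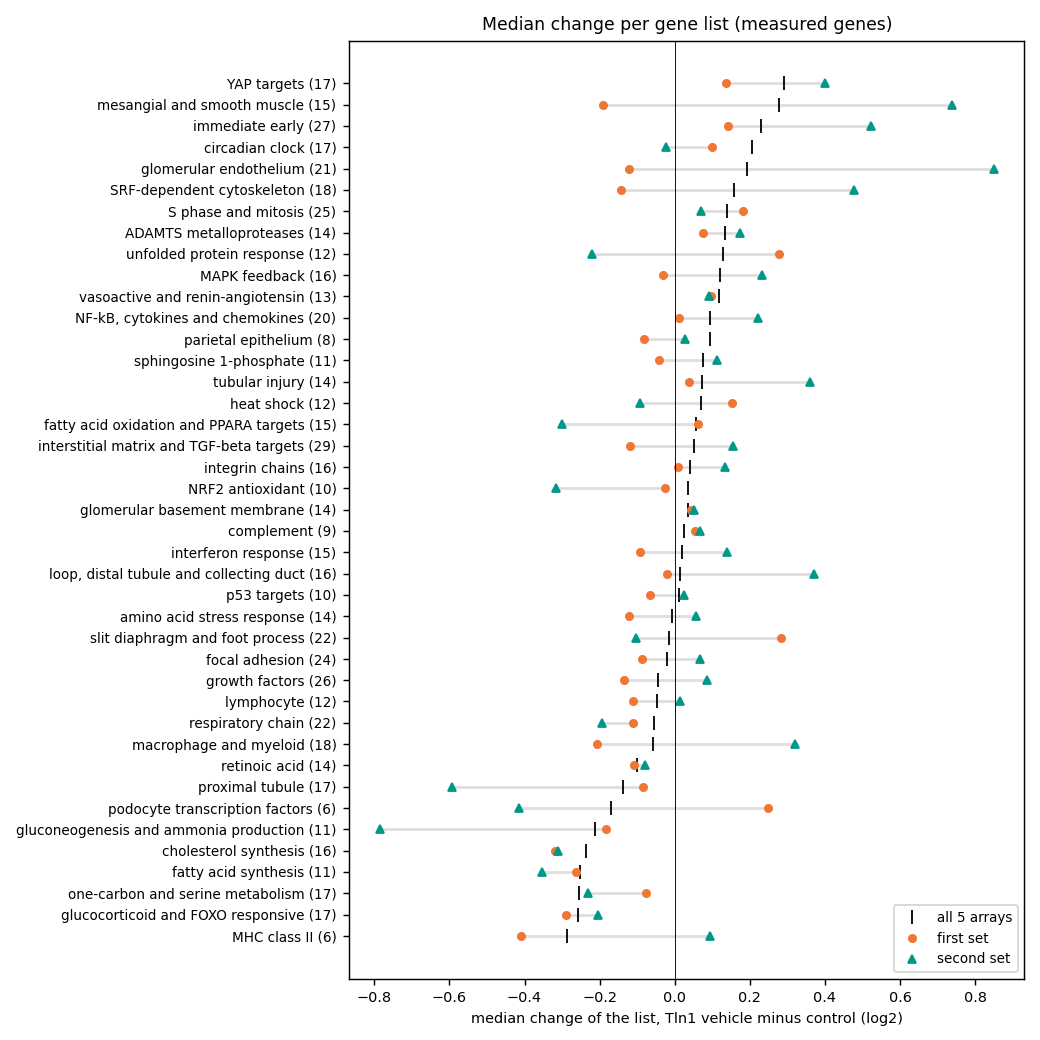
Median change of each gene list in log2 units over all 5 arrays (black bars), in the first set (circles) and in the second set (triangles), with the number of measured genes in brackets; sex-linked and sex-biased lists are left out. YAP targets lie at the top (0.29) and MHC class II genes at the bottom (-0.29), and the set medians of the mesangial and endothelial lists lie on opposite sides of 0.

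Genes of S phase and mitosis were low on these arrays, with mean levels of 4.93, 4.80, 5.17, 5.02 and 4.96 over the 5 arrays. Of 25, 9 were higher and 3 lower in both sets, against 20.8% and 22.5% of all genes. The median was 0.14 (0.18 and 0.07 in the sets). The proliferation marker Mki67 was at 5.37, 5.35, 6.14, 5.59 and 6.46 (change 0.70, SE 0.24). With it, the mitotic cyclin Ccnb2 and the ribonucleotide reductase subunit Rrm2 had all Tln1 vehicle arrays above the controls. These were 3 of 25 genes, against 4.78% of all genes. The NF-kB and cytokine list had a median of 0.09 (sets 0.01 and 0.22). Of its 20 genes 10 were higher in both sets, against 20.8% of all genes, and 3 parted the groups upward, against 4.78%. These were Tnfaip3, which restrains NF-kB, the chemokine Cxcl1 and the cytokine Il34. Tnfaip3 was at 5.54, 5.26, 5.77, 5.66 and 5.95 (change 0.39, SE 0.15), and the cytokine receptor Tnfrsf12a changed by 0.42 (SE 0.24) with overlap. Macrophage markers had medians of -0.21 and 0.32 and lymphocyte markers of -0.11 and 0.01 in the sets. Among 14 genes of retinoic acid handling, the receptors Rara and Rarg lay above both controls in all Tln1 vehicle arrays, against 4.78% of all genes. Aldh1a1, Crabp1 and Rarb lay below them, against 3.59%. The median of the list was -0.10 (-0.11 and -0.08 in the sets).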

How the data were processed

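Total RNA of isolated mouse glomeruli was measured on 8 Affymetrix arrays, of which 5 are compared here. The authors computed the deposited log2 values with RMA and used limma, per the submitters' processing notes. Not given in the sources used here are their versions, the genome build and whether all arrays were normalised together. No scanner values were used.

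Of 41345 probe sets, 23521 had 1 gene symbol, 1814 several and 16010 none in GEO's platform annotation. Per gene, the 1-symbol probe set with the highest mean over the 8 arrays was kept (22180 genes). One limma 3.58.1 fit in R 4.3.3 (lmFit, eBayes, a single group term, all 8 arrays) gave changes, standard errors and two-sided p-values, adjusted after Benjamini and Hochberg over all genes. The fit was tested on simulated data. The number of arrays limits the precision.

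The members, the 44 gene lists (663 of 721 genes measured) and the tests were chosen with earlier results of these data known. Named are Tln1, Egr1 as a reference, and per direction the 12 genes with the largest smaller set change among those whose groups did not overlap, whose mean in the higher group exceeded the median gene mean of 4.92 and whose symbol is not a predicted or clone name. From each list up to 4 members with the largest smaller set change are named; others were chosen after their values were seen. Lists were described by counts and medians with no test. Promoters came from a RefSeq table (GRCm38.p6). Alternatives were the array set as a block, the first set alone, the replicate number as a block, only the 5 arrays, quantile normalisation, centring, averaging all probe sets per gene, only genes above the median level, trended and robust eBayes, array weights, the Y-linked level as a covariate and leaving out each array. The array set together with the Y-linked level, and the interaction of group and set, were added after seeing the data. Figures were drawn with matplotlib 3.10.9.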

Additional observations from a re-analysis of the deposited data

How the results depend on the processing

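The number of genes at an adjusted p below 0.05 was 0 in every limma fit tried except that with the replicate number as a block, which called 4 (Ces1f, Ces1g, Cyp2e1 and Cyp2j13). Control and Tln1 vehicle share only 2 numbers, whose arrays deviated together for number 1 (r = 0.609 across genes) and opposite ways for number 2 (r = -0.591), so the numbers were not taken as a pairing. Genes at an unadjusted p below 0.05 went from 322 to 1829 with the replicate block, 1620 with a block for the array set, 2672 in the first set alone, 655 with array weights, 2486 with the Y-linked covariate, 2086 with that covariate and the set, and 173 among genes above the median level. Leaving out single arrays gave 214 (Tln1 vehicle 1) to 806 (Tln1 vehicle 3), with 663 without control 1 and 630 without control 2. Genes whose groups did not overlap numbered 792 higher and 1443 lower after centring and 1115 and 1187 after quantile normalisation, against 1060 and 797; they numbered 538 and 351 among genes above the median level, and 1473 to 5952 higher and 1312 to 6180 lower with 1 array fewer, where fewer arrays overlap less. Genes past 0.25 in both sets numbered 398 higher and 484 lower, and past 1, 15 and 8, against 75 and 89 past 0.5. The interaction of group and set gave 0 genes at an adjusted p below 0.05 (smallest 0.216) and 2689 at an unadjusted p below 0.05. None of the 24 genes chosen by size turned its sign under any of 17 alternatives. The rule that chose them fixed this for the fits on fewer arrays, since it required groups that did not overlap and 1 direction in both sets. It is thus no measure of their stability. The lists were not chosen by that rule, and 34 of the 44 list medians turned under at least 1 alternative. With 2 control arrays, and 1 in each set, the precision is low, and genotype and vehicle cannot be told apart.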

Other observations

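Gene lists not described above gave these values. Of all genes, 4.78% had all Tln1 vehicle arrays above both controls and 3.59% had all of them below. Of 12 heat shock genes, Hspa1b and the cochaperone Bag3 had all Tln1 vehicle arrays above both controls, and the median was 0.07 (0.15 and -0.09 in the sets). Among 10 p53 targets the cell cycle inhibitor Cdkn1a lay below both controls (8.18, 8.00, 7.46, 6.59, 7.74), with a change of -0.83 (SE 0.37) that was -0.11 with the array set and the Y-linked level in the fit. Of 12 genes of the unfolded protein response, Herpud1 lay below both controls (change -0.37, SE 0.21), and the list had medians of 0.28 and -0.22 in the sets. Among 16 feedback regulators of MAPK signalling, Spry1 (change 0.36, SE 0.19) and Dusp8 (0.14, SE 0.15) lay above both controls.

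Of 26 growth factors, Igf2 alone parted the groups (change -0.49, SE 0.17), and the median was -0.04. Of 13 vasoactive genes, Nos1, the neuronal nitric oxide synthase, lay below both controls (change -0.43, SE 0.20), and the endothelin receptor Ednrb changed by 0.89 (SE 0.38) with overlap. None of 29 genes of interstitial matrix and TGF-beta targets parted the groups; Col5a2 changed by -0.50 (SE 0.25) and Thbs1 by 0.37 (SE 0.25). Ddit4 was the only one of 14 genes of the amino acid stress response without overlap (change 0.22, SE 0.14). All 6 measured MHC class II genes were lower over all arrays, with set medians of -0.41 and 0.09. No member of the interferon, complement or NRF2 lists, nor of the distal tubule markers, parted the groups; their medians were 0.02, 0.02, 0.04 and 0.01.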
